A study of Mus musculus with 32 samples.

Results

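The genes described here encode the histone deacetylases, sirtuins, lysine acetyltransferases, lysine demethylases, several groups of lysine methyltransferases, and the enzymes that add or oxidise DNA methylation. Members were taken by gene symbol as the protein-coding genes of the Hdac, Sirt, Kat, Kdm, Kmt2, Kmt5, Setd, Prdm, Dnmt and Tet series, by symbol alone, which gave 83 of the 54532 genes in the count table. A further 9 non-coding genes with matching symbols were left out. RNA came from the striatum of 32 mice at 6 months of age on a C57BL/6J background, 8 of each of 4 genotypes. WT mice carried neither allele. zQ175 mice carried a mutant huntingtin allele with a highly expanded CAG repeat, knocked into the mouse huntingtin locus and therefore present in every cell. Msh3-/- mice lacked the mismatch repair protein MSH3 after CRISPR cutting at 2 exons of its gene, in all tissues, and zQ175:Msh3-/- mice carried both alterations. There were 4 females and 4 males in each genotype except zQ175:Msh3-/-, which had 3 females and 5 males. The study asked whether loss of MSH3, which drives somatic growth of the CAG repeat, alters the striatal transcriptome of zQ175 mice.

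Histone deacetylases and sirtuins remove acetyl groups from lysines of histones and other proteins, and Kat enzymes add them. Kmt and some Setd and Prdm proteins place methyl groups on histone lysines, which Kdm enzymes remove, the Kdm1 enzymes by amine oxidation and most others through a Jumonji domain that needs iron and 2-oxoglutarate. Dnmt enzymes methylate cytosine and Tet enzymes oxidise the methyl group. Deacetylases have long been of interest in Huntington's disease, where mutant huntingtin interferes with acetyltransferases and transcription factors.

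Libraries held 12359347 to 25030335 counts assigned to genes, and all results rest on 8 mice a genotype, so p-values cover the spread between mice. Msh3, the targeted gene, had a mean of 24.5 CPM (counts scaled to library size) in WT and 24.4 CPM in zQ175 mice, against 11.8 CPM in Msh3-/- and 12.9 CPM in zQ175:Msh3-/- mice. These counts cover the whole gene, including exons outside the deletion. In cortex of the knockout line the paper reported Msh3 mRNA as ablated, by an assay inside the deleted region, and found no MSH3 protein. The source of the remaining counts was not tested. Of 10 markers of spiny projection neurons, the main cell type of the striatum, 9 fell and 0 rose in zQ175 against WT mice, with a median log2 fold change of -0.83, and 9 fell between zQ175:Msh3-/- and Msh3-/- mice, with a median of -0.78. Their summed level was 7689 to 9290 TPM (transcript abundance scaled for length and depth) in WT, 7826 to 9659 TPM in Msh3-/-, 4437 to 5566 TPM in zQ175 and 4489 to 5685 TPM in zQ175:Msh3-/- mice, with none of them at 0. This marker change accompanied each zQ175 effect given here, and its part in those effects was not tested. In bulk tissue, fewer cells of a type and less RNA in each cell cannot be told apart. Of 7 markers each, 3 of astrocytes, 1 of oligodendrocytes and 2 of microglia fell in zQ175 against WT mice and 0 rose, with medians of -0.13, -0.02 and -0.11 on the log2 scale. Of 5 endothelial markers 3 fell and 0 rose, with a median of -0.27, and of 7 general neuron markers 1 rose, Stmn2 at 0.65, and 1 fell. Between zQ175:Msh3-/- and Msh3-/- mice 5 of 7 microglial markers fell, with a median of -0.16, as did 1 of 5 endothelial markers, with a median of -0.19. Of 7 markers each, 2 of astrocytes and 1 of oligodendrocytes fell there and 0 rose, with medians of -0.10 and -0.11. Of 4 markers of oligodendrocyte precursors 1 fell and 0 rose. Of 7 general neuron markers Stmn2 rose again, at 0.65, and 2 fell. The part of these shifts in the results was not tested. Markers of cortex and choroid plexus, which neighbour the striatum, summed to between 70.5 and 5918 TPM over the mice, and 0 of 8 passed in either zQ175 comparison. Their median log2 fold changes there were 0.47 and 0.51, with 5 above 0 and 3 below in each. Between zQ175:Msh3-/- and WT mice all 8 were above 0, with a median of 0.82, and 0 passed. All 8 were also above 0 between Msh3-/- and WT mice, with a median of 0.33, and 0 passed. The part of these markers in the results was not tested.

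Most of the enzymes were expressed in striatum. After a filter on low counts, 77 of the 83 were tested among 16610 genes. The 6 that did not pass were Dnmt3c, Dnmt3l, Prdm6, Prdm12, Prdm13 and Prdm14, with at most 4 counts in any mouse. Per transcript length, the highest mean level was that of Sirt2, a mainly cytoplasmic tubulin and histone deacetylase rich in myelin-forming cells, at 201 TPM. Next came Hdac11, the single class IV deacetylase, at 171 TPM, Setd3, the actin histidine methyltransferase, at 149 TPM, Hdac5, a class IIa deacetylase shuttled out of the nucleus by calcium signals, at 137 TPM, and Hdac2, the catalytic subunit of several corepressor complexes, at 102 TPM. Hdac1, the close relative of Hdac2, stood at 30.3 TPM. Among the Kmt2 series, most of which methylate lysine 4 of histone H3, the means ran from 27.4 TPM for Kmt2b to 46.3 TPM for Kmt2e. Dnmt3a, the de novo DNA methyltransferase of neurons, was at 35.2 TPM and Dnmt1, the maintenance enzyme, at 24.0 TPM, whereas Dnmt3b was at 0.458 TPM. Tet2 and Tet3 were at 25.6 and 18.1 TPM and Tet1 at 4.11 TPM. The 10 tested Prdm genes ran from 0.362 TPM for Prdm1 to 18.6 TPM for Prdm2.

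**Figure D1:**
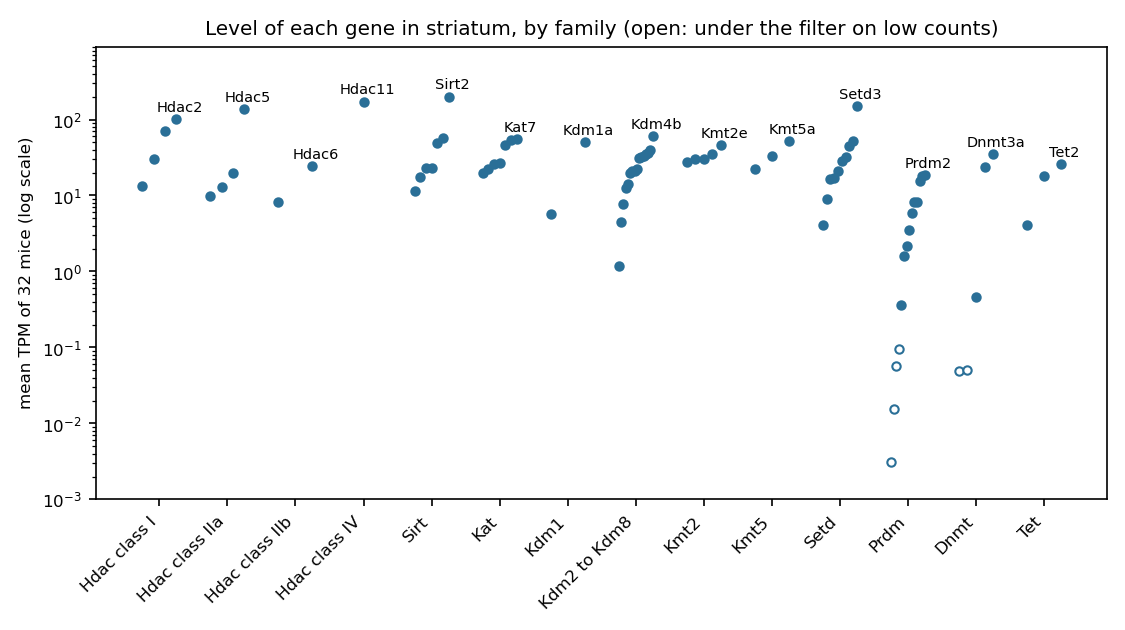
Mean TPM over 32 mice (log scale) of each of the 83 genes, grouped by family on the horizontal axis, with the highest gene of each family named and genes that did not pass the filter on low counts drawn as open circles. Sirt2 (201 TPM), Hdac11 (171 TPM) and Setd3 (149 TPM) lead, and all 6 open circles belong to the Prdm and Dnmt families.

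Expression of most of these enzymes varied little between mice of 1 genotype. The median coefficient of variation within genotypes was 6.93% over the 77 tested members and 9.20% over all tested genes, which were not matched for expression level. It was lowest for Setd3, at 2.90%, and highest for the Y-linked Kdm5d, at 99.98%. Prdm8 followed at 63.0%, Dnmt3b at 33.0% and Prdm1 at 30.0%.

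The first comparison asked which enzymes differed between zQ175 and WT striatum. A gene was called when edgeR's quasi-likelihood test gave an adjusted p under 0.05, with Benjamini-Hochberg adjustment over all 16610 genes, and the fold change was at least 1.2 either way. By this rule 5 of 77 members were called, or 6.49%, against 11.6% of all tested genes. Kdm6b, Hdac1 and Sirt6 rose, 3 members against 4.70% of all genes called higher, and Kdm3a and Kdm4b fell, 2 members against 6.89% called lower. Without the fold requirement 22 members passed, or 28.6%, against 26.5% of all genes. Of these 12 rose, against 13.0% of all genes, and 10 fell, against 13.5%. The median log2 fold change was 0.03 over the members and 0.01 over all genes. The median size of the change among those past adjusted p under 0.05 was 1.15-fold for members and 1.18-fold for all genes, and 22.7% of these members against 43.8% of these genes also reached 1.2-fold.

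Kdm3a, which removes mono- and dimethylation from lysine 9 of histone H3 and is a known target of hypoxia signalling, had the largest decrease among the tested members. It lies on chromosome 6 (71588972 to 71632990, minus strand). Its level in WT mice was 64.7 CPM at the lowest, 78.0 at the median and 89.6 at the highest, and in zQ175 mice it was 52.3, 55.1 and 58.5 CPM. Every zQ175 mouse lay below every WT mouse. The log2 fold change was -0.48 ± 0.06 (SE, n = 8 per genotype), with an adjusted p of 7.03e-08 by edgeR.

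Kdm4b, on chromosome 17 (56326062 to 56402870, plus strand), acts on trimethylated lysine 9 of histone H3. In WT mice it ranged from 93.3 to 126 CPM with a median of 117, and in zQ175 mice from 82.3 to 95.5 CPM with a median of 85.6. The groups overlapped through the highest zQ175 mouse and the lowest WT mouse, and the other zQ175 mice were at most 86.7 CPM. The log2 fold change was -0.40 ± 0.05 (SE, n = 8), with an adjusted p of 1.38e-08 by edgeR. A related gene, Kdm3b, fell by less, with a log2 fold change of -0.18 ± 0.03 (SE) and an adjusted p of 1.96e-05 by edgeR, yet its groups did not overlap, at 76.2 to 84.2 CPM in WT and 68.2 to 75.9 CPM in zQ175 mice.

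Kdm6b, also known as JMJD3, removes the repressive methyl marks from lysine 27 of histone H3 and is induced by many stimuli. It lies on chromosome 11 (69398508 to 69413675, minus strand). WT mice had 27.2, 31.6 and 35.7 CPM at the lowest, median and highest, and zQ175 mice 37.5, 40.0 and 46.5 CPM. All 8 zQ175 mice exceeded all 8 WT mice. The log2 fold change was 0.36 ± 0.07 (SE, n = 8), with an adjusted p of 0.000246 by edgeR. An opposite-strand gene, Kdm6bos, held at most 0.389 CPM in any mouse. Kdm3a, Kdm3b and Kdm6b were the 3 members whose groups did not overlap, beside 6.63% of all tested genes.

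Hdac1, a class I deacetylase on chromosome 4 (129516104 to 129542713, minus strand), had 18.2, 20.9 and 24.4 CPM at the lowest, median and highest WT mouse and 23.9, 25.7 and 28.5 CPM in zQ175 mice. Only the ends of the 2 groups overlapped. The log2 fold change was 0.28 ± 0.05 (SE, n = 8), with an adjusted p of 7.96e-05 by edgeR, and it no longer reached 1.2-fold in males alone or without WT female 1 or zQ175 male 4. Of the 100-base runs in its transcript, 46.8% also occur in other annotated genes, among them Gm10093, at no more than 0.33 CPM, and Gm4864, at 0 in every mouse, so counts of Hdac1 could hold reads of such copies. Its partner in the same corepressor complexes, Hdac2, had a log2 fold change of -0.01 ± 0.04 (SE), from a WT range of 81.9 to 94.7 CPM to a zQ175 range of 83.6 to 95.6 CPM, with an adjusted p of 0.875 by edgeR.

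Sirt6, a nuclear sirtuin that deacetylates histone H3 and takes part in DNA repair and glucose metabolism, had 9.75, 11.2 and 11.9 CPM at the lowest, median and highest WT mouse and 11.8, 12.9 and 14.9 CPM in zQ175 mice. It lies on chromosome 10 (81621785 to 81627797, minus strand). The groups overlapped only where the lowest zQ175 mouse met the highest WT mouse. The log2 fold change was 0.27 ± 0.06 (SE, n = 8), with an adjusted p of 0.000394 by edgeR. This change was just past 1.2-fold, and the call was lost under another scaling, in females alone and when any of 6 single mice was left out (WT female 4, male 1 or male 4, or zQ175 female 1, male 2 or male 4), while the log2 fold change stayed between 0.24 and 0.35.

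**Figure D2:**
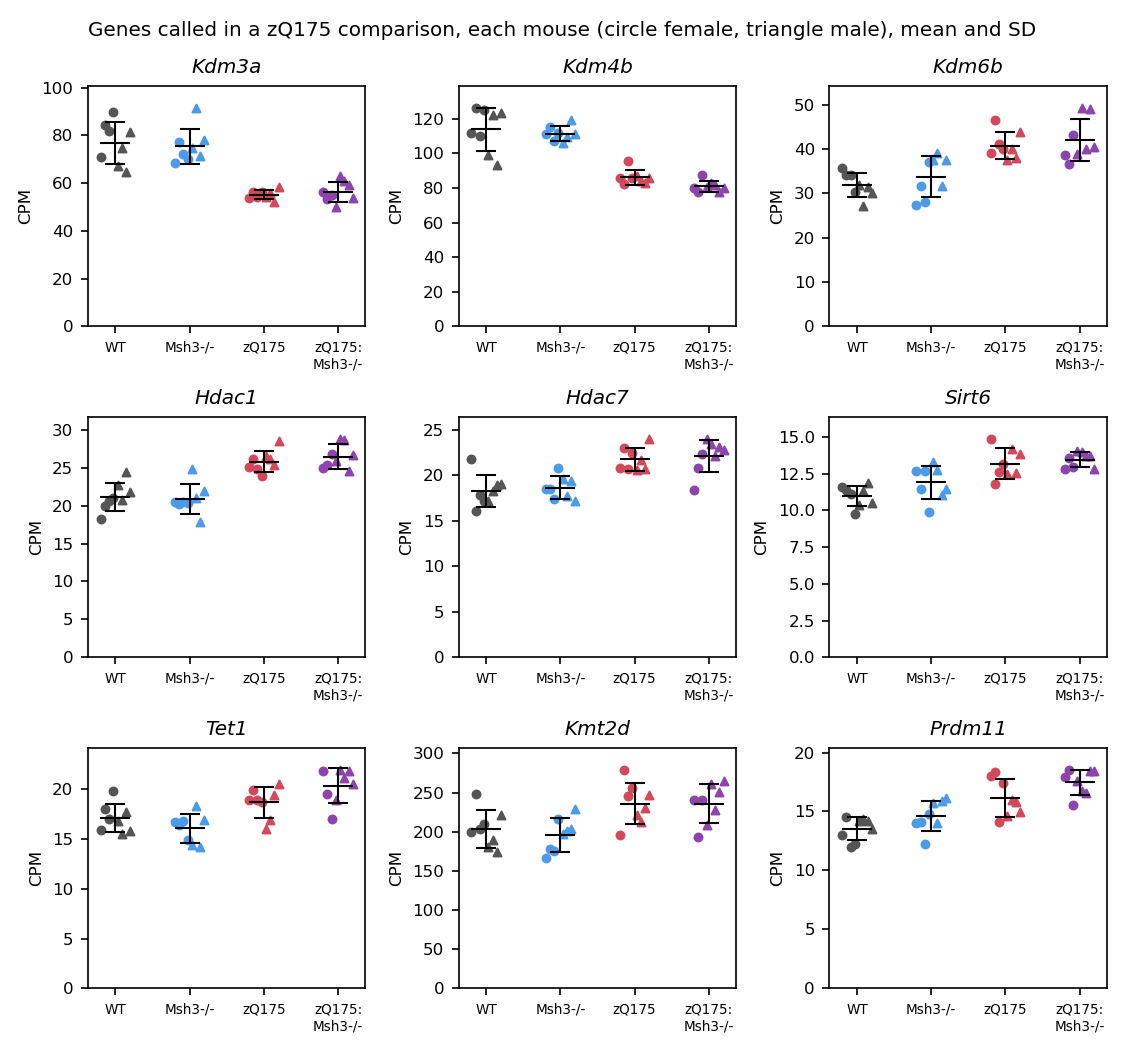
CPM of each of 32 mice (vertical axis, from 0) by genotype for the 9 genes called in any comparison with the zQ175 allele, with circles for females, triangles for males, and black lines for the mean ± SD of 8 mice. In Kdm3a all zQ175 mice (52.3 to 58.5 CPM) sit below all WT mice (64.7 to 89.6 CPM), and in Kdm6b they sit above them.

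By enzyme class, zQ175 against WT mice showed changes in both directions, and the counts by class can be read against the 13.0% of all genes that rose and the 13.5% that fell. Of 11 deacetylases of the Hdac series 4 rose at an adjusted p under 0.05, namely Hdac1, Hdac7, Hdac6 and Hdac3, and 1 fell, Hdac11. Hdac7, a class IIa enzyme, went from a WT median of 18.0 CPM to 21.2 CPM (log2 fold change 0.25 ± 0.06, SE), and Hdac6, the cytoplasmic tubulin deacetylase, from 34.3 to 39.7 CPM (0.19 ± 0.05). Hdac11, with medians of 188 CPM in WT and 170 CPM in zQ175 mice, had a log2 fold change of -0.15 ± 0.03 (SE) and an adjusted p of 0.0006 by edgeR, but 0.0594 by limma on log2(TPM + 0.1). Hdac4, a class IIa enzyme studied as a modifier in Huntington's disease mice, had medians of 45.2 and 43.9 CPM and an adjusted p of 0.778 by edgeR.

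Of the 7 sirtuins 3 rose, Sirt2, Sirt3 and Sirt6, and 0 fell. Sirt2 ranged from 137 to 152 CPM in WT mice and from 141 to 187 CPM in zQ175 mice, with a log2 fold change of 0.24 ± 0.05 (SE) and an adjusted p of 0.000227 by edgeR. The 7 oligodendrocyte markers, which belong to the cells in which Sirt2 is enriched, had a summed level of 8392 to 10119 TPM in WT and 6910 to 11232 TPM in zQ175 mice; 1 of them, Mobp, fell and 0 rose. Sirt3, the main mitochondrial deacetylase, had a median of 31.3 CPM in WT and 36.1 CPM in zQ175 mice (log2 fold change 0.20 ± 0.04, SE). Sirt1 had medians of 17.6 and 17.7 CPM, with an adjusted p of 0.734 by edgeR.

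None of the 7 acetyltransferases of the Kat series passed the test. Their log2 fold changes ran from -0.04 for Kat7 to 0.09 for Kat6a, and Kat2a, the GCN5 acetyltransferase of the SAGA complex, had 65.5 to 72.2 CPM in WT and 62.5 to 72.4 CPM in zQ175 mice. Among the 18 Kdm genes 1 rose and 5 fell, the latter being Kdm3a, Kdm3b, Kdm4b, Kdm5a and Kdm7a. Kdm7a, which acts on lysines 9 and 27 of histone H3, went from a median of 90.5 to 78.2 CPM, and Kdm5a, which acts on lysine 4, had a log2 fold change of -0.14 ± 0.03 (SE). Kdm1a, the amine oxidase LSD1, had medians of 51.3 and 52.9 CPM and an adjusted p of 0.717 by edgeR.

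Of 5 Kmt2 genes 1 rose, Kmt2d, from a median of 201 to 238 CPM (log2 fold change 0.22 ± 0.08, SE; adjusted p 0.0367 by edgeR). Kmt2a and Kmt2e had log2 fold changes of -0.10 ± 0.06 and 0.05 ± 0.03 (SE), with adjusted p of 0.204 and 0.279 by edgeR. In the Kmt5 group Kmt5b, which methylates lysine 20 of histone H4, rose, with a log2 fold change of 0.15 ± 0.04 (SE), and Kmt5a did not pass the test. Of 10 Setd genes 3 fell by small amounts, Setd3 (-0.08 ± 0.03), Setd1a (-0.12 ± 0.04) and Setd2 (-0.10 ± 0.04), and 0 rose. The Setd1a transcript shares 53.7% of its 100-base runs with the overlapping gene Gm49388, which held up to 8.12 CPM. Setdb1, which silences retroelements through lysine 9 of histone H3, had medians of 42.1 and 44.8 CPM and an adjusted p of 0.287 by edgeR. Of 10 tested Prdm genes 1 rose, Prdm11, from a median of 13.8 to 15.9 CPM (0.25 ± 0.06), and Prdm2 had an adjusted p of 0.217 by edgeR.

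For DNA methylation, Dnmt3a fell, from a range of 124 to 158 CPM in WT to 113 to 137 CPM in zQ175 mice (log2 fold change -0.19 ± 0.05, SE; adjusted p 0.0023 by edgeR). Dnmt1 had medians of 52.8 and 54.1 CPM and an adjusted p of 0.586 by edgeR. Tet2 rose, from a median of 59.2 to 68.7 CPM (0.20 ± 0.05; adjusted p 0.00247 by edgeR), and Tet1 and Tet3 did not pass, with adjusted p of 0.134 and 0.714 by edgeR.

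The balance of rises and falls depended on the scale. With limma on log2(TPM + 0.1), 19 members passed adjusted p under 0.05 in zQ175 against WT mice, 15 higher against 15.4% of all genes and 4 lower against 6.35%, in place of 12 higher and 10 lower in counts. On that scale Dnmt3a, Hdac11, Kdm5a, Kmt2d, Prdm11, Setd1a, Setd2 and Setd3 did not pass, and Kat6a, Kdm4a, Kmt2c, Prdm15 and Setd7 did. No member that passed in counts changed sign. The median log2 fold change of all genes was 0.07 on the TPM scale and 0.01 in counts.

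Sequence upstream of the start could be read from RefSeq on GRCm38.p6 for 6 of the 9 genes called with the zQ175 allele (Sirt6, Kdm3a, Tet1, Kmt2d, Hdac7 and Prdm11) and for 66 members in all. The GC box GGGCGG, the core bound by Sp factors, which mutant huntingtin has been studied with, was searched on both strands in the 250 bases before each start. It occurred in 56 of 96 member promoters, or 58.3%, and in 32.7% of all 32851 promoters, while the median number of CpG dinucleotides was 15 in the former and 6 in the latter. Other short motifs were searched in the same way. The hypoxia response core ACGTG occurred in 17.7% of member promoters against 16.6% of all, and the E-box CACGTG in 6.25% against 6.02%. The CRE core TGACG occurred in 25% against 17.8%, and CCAAT in 42.7% against 33.8%. For ACGTG the promoter of Sirt6 held 2 matches and those of Kdm3a and Kmt2d held 0. The promoters of Kdm3a, which fell, and of Kmt2d and Sirt6, which rose, are shown because they differ in the GC box, with 2, 4 and 0 matches, drawn in capitals on either strand. Tet1 held 1 GC box and Hdac7 and Prdm11 held 0. The 3 promoters shown are given 5′ to 3′ along each gene, all from the minus strand, at chr6:71632918-71633167 for Kdm3a, chr15:98871206-98871455 for Kmt2d and chr10:81627567-81627816 for Sirt6. The starts are those of RefSeq, which gave 3 starts for Kdm3a, 1 for Kmt2d and 2 for Sirt6, and the nearest to the GENCODE 5′ end was used. For Sirt6 it lay 231 bases and for Kdm3a 73 bases inside the GENCODE gene. That many of the 250 printed bases are annotated there as gene, which is most of them for Sirt6. Little sequence before the GENCODE start of Sirt6 was therefore searched. For Tet1 the RefSeq start lay 21672 bases away. A match is a description of the letters.
Kdm3a: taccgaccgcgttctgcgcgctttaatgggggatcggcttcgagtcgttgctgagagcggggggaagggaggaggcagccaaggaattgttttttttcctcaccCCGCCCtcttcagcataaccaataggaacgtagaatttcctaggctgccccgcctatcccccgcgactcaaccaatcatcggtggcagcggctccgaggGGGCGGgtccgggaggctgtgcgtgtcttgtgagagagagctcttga
Kmt2d: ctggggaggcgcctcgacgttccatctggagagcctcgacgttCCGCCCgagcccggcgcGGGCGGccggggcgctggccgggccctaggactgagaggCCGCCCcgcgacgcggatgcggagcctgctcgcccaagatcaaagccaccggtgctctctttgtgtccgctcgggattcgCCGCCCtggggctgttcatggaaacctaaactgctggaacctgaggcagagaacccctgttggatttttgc
Sirt6: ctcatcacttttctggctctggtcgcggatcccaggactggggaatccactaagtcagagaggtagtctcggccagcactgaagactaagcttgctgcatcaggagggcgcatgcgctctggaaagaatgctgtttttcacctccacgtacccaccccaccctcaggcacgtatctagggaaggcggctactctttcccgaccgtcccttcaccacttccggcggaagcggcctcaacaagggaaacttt

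The second comparison set zQ175:Msh3-/- against Msh3-/- mice and so measured the zQ175 effect again, in mice of neither of the first 2 groups. Here 6 of 77 members were called, or 7.79%, against 10.6% of all genes. Tet1, Hdac1, Kdm6b and Kmt2d rose, 4 members against 4.68% of all genes, and Kdm4b and Kdm3a fell, 2 members against 5.96%. Without the fold requirement 26 members passed, or 33.8%, against 24.1% of all genes, with 17 higher against 11.8% and 9 lower against 12.3%. By limma on log2(TPM + 0.1) 27 members passed, 23 higher against 16.5% of all genes and 4 lower against 5.28%. The median log2 fold change in counts was 0.04 over the members and 0.01 over all genes.

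Kdm3a again had no overlap, with 68.4 to 91.5 CPM in Msh3-/- and 50.0 to 62.9 CPM in zQ175:Msh3-/- mice, and a log2 fold change of -0.42 ± 0.06 (SE, n = 8; adjusted p 1.06e-06 by edgeR). Kdm4b went from 106, 111 and 120 CPM at the lowest, median and highest Msh3-/- mouse to 77.7, 80.4 and 87.4 CPM, also without overlap, and had a log2 fold change of -0.46 ± 0.05 (adjusted p 1.04e-09 by edgeR). Sirt3 and Hdac11 completed the 4 members whose groups did not overlap, beside 5.39% of all tested genes.

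Kdm6b rose from a median of 34.4 to 40.3 CPM, with overlapping ranges of 27.4 to 39.1 and 36.6 to 49.3 CPM (log2 fold change 0.31 ± 0.07, SE; adjusted p 0.00123 by edgeR). In males only its log2 fold change was 0.25, which was under the fold limit. Hdac1 went from a median of 20.4 to 26.3 CPM, with a single Msh3-/- mouse at 24.8 CPM inside the zQ175:Msh3-/- range of 24.6 to 28.8 CPM (0.34 ± 0.05; adjusted p 6.38e-06 by edgeR). Sirt6 had medians of 12.1 and 13.6 CPM and rose by less than 1.2-fold (0.18 ± 0.06; adjusted p 0.0191 by edgeR).

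Tet1, which starts the removal of DNA methylation, was at 14.2, 16.5 and 18.3 CPM at the lowest, median and highest Msh3-/- mouse and at 17.0, 20.8 and 22.0 CPM in zQ175:Msh3-/- mice. It lies on chromosome 10 (62804570 to 62908996, minus strand). The log2 fold change was 0.34 ± 0.06 (SE, n = 8; adjusted p 7.54e-05 by edgeR), and in females alone, 4 against 3, it was 0.27 with an adjusted p of 0.0641. On the log2(TPM + 1) scale it was 0.23, which was under the fold limit. Kmt2d, an enzyme of the MLL type, on chromosome 15 (98831669 to 98871204, minus strand), went from 167, 199 and 229 CPM to 193, 241 and 264 CPM, groups that overlapped widely. Its log2 fold change of 0.27 ± 0.08 (SE; adjusted p 0.0109 by edgeR) lay at the limit of 1.2-fold, and the call was lost in 12 of 29 alternatives, 8 of which left out a single mouse.

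**Figure D3:**
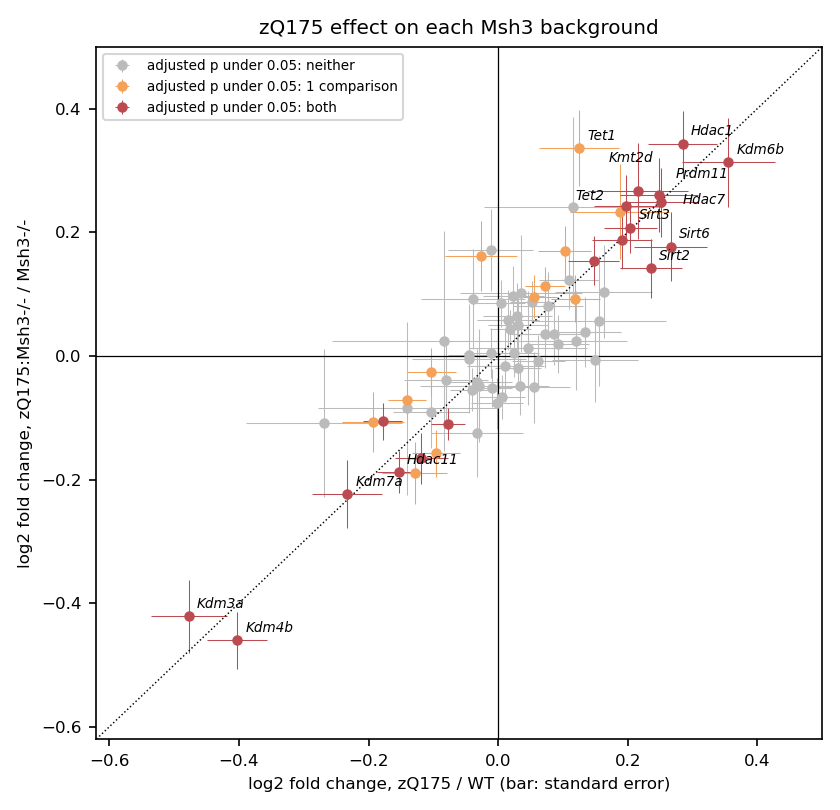
Log2 fold change of zQ175 against WT mice (horizontal axis) and of zQ175:Msh3-/- against Msh3-/- mice (vertical axis) for 73 of the 77 tested genes, with bars for standard errors, a dotted line of equality and colour for the number of comparisons with an adjusted p under 0.05. Dnmt3b, Kdm5d and Prdm1, which have low counts or depend on sex, are not drawn. Prdm8, with 6 to 149 counts a mouse, is not drawn because its values of 0.88 and 1.04 lie beyond the axes. It did not pass adjusted p under 0.05 in either comparison. Kdm3a and Kdm4b stand apart at the lower left.

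The 2 zQ175 effects shared no mouse. The sign was the same for 62 of 77 members, or 80.5%, and for 77.8% of all tested genes. An adjusted p under 0.05 in both was reached by 18 members, or 23.4%, and by 17.0% of all genes. Of the 18, 11 were higher in both and 7 lower in both. Another 12 passed in a single comparison, and of the 30 in all 29 had the same sign in both. Across the members the 2 log2 fold changes had a Pearson r of 0.827, and across all tested genes of 0.743, which describes genes that are not independent replicates. The 7 that fell in both included Kdm3a, Kdm3b, Kdm4b and Kdm7a, all Jumonji demethylases, together with Hdac11, Setd1a and Setd3. The 11 that rose in both were Hdac1, Hdac6, Hdac7, Sirt2, Sirt3, Sirt6, Kdm6b, Kmt2d, Kmt5b, Prdm11 and Tet2. Of these Kdm6b is also a Jumonji demethylase. Among the 16 Kdm2 to Kdm8 genes 9 estimates were above 0 and 7 below in each comparison. At an adjusted p under 0.05, 1 of these genes rose and 5 fell in the first comparison, and 3 rose and 4 fell in the second. By limma on log2(TPM + 0.1), Hdac5, Kdm3b, Kdm7a, Setd1a and Setd3 did not pass in the second comparison.

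Differences between the 2 zQ175 effects were tested by the interaction term. In this test 0 of 77 members were called, against 0% of all genes, and 2 had an unadjusted p under 0.05, or 2.60%, against 4.44% of all genes. These were Tet1, whose zQ175 effect was larger by 0.21 ± 0.09 (log2, SE) without Msh3, and Sirt5, a mitochondrial desuccinylase, larger by 0.19 ± 0.08. Both had an adjusted p of 0.999 by edgeR, so the call of Tet1 in 1 comparison and not in the other was not shown to be a difference between them.

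zQ175:Msh3-/- mice were also set against WT mice, with the same WT mice as in the first comparison. Here 7 of 77 members were called, 5 higher against 5.50% of all genes and 2 lower against 6.49%, and 27 passed adjusted p under 0.05, against 26.9%. The called genes were Kdm3a, Kdm4b, Kdm6b, Hdac1 and Sirt6, as in the first comparison, with Hdac7 and Prdm11 added. Hdac7, on chromosome 15 (97792664 to 97844502, minus strand), went from 16.0, 18.0 and 21.7 CPM at the lowest, median and highest WT mouse to 18.4, 22.6 and 24.0 CPM, with a log2 fold change of 0.28 ± 0.06 (SE; adjusted p 0.000185 by edgeR). Prdm11, a Prdm family regulator on chromosome 2 (92965151 to 93046167, minus strand), had a median of 13.8 and a highest value of 14.5 CPM in WT mice and 15.6, 17.7 and 18.5 CPM at the lowest, median and highest zQ175:Msh3-/- mouse. Its log2 fold change was 0.37 ± 0.06 (adjusted p 1.09e-05 by edgeR). By limma on log2(TPM + 0.1) 28 members passed, 26 higher against 18.2% of all genes and 2 lower against 5.53%, in place of 17 higher and 10 lower in counts, and Hdac5, at -0.13 in counts, was at 0.02.

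Loss of Msh3 alone was tested on both backgrounds. Between zQ175:Msh3-/- and zQ175 mice 0 of 77 members were called by edgeR or by DESeq2, against 0.00602% of all genes, and 3 members had an unadjusted p under 0.05, or 3.90%, against 3.70%. These were Kdm5a, Sirt4 and Tet1, with log2 differences of 0.07 ± 0.03, 0.15 ± 0.07 and 0.13 ± 0.06 (SE) and adjusted p of 0.999 by edgeR. The other genes called with the zQ175 allele had log2 differences of 0.03 ± 0.06 for Kdm3a, -0.09 ± 0.05 for Kdm4b, 0.04 ± 0.07 for Kdm6b, 0.04 ± 0.05 for Hdac1, 0.03 ± 0.06 for Sirt6, 0.03 ± 0.05 for Hdac7, -0.00104 ± 0.08 for Kmt2d and 0.12 ± 0.06 for Prdm11. Each of these estimates, and that of Tet1, was smaller than 1.2-fold in either direction. The lower level of Kdm4b had an exact two-sided permutation p of 0.00777, or 0.264 after adjustment over the 34 named genes. By edgeR it had an unadjusted p of 0.0683 and an adjusted p of 0.999.

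Between Msh3-/- and WT mice 0 members were called by either tool, against 0.00602% of all genes, and 2 had an unadjusted p under 0.05, or 2.60%, against 5.09% of all genes. These were Sirt6, higher by 0.12 ± 0.06, and Prdm9, the meiotic recombination regulator, with a log2 fold change of -0.32 ± 0.14 and 15 to 37 counts a mouse. Both had an adjusted p of 0.926 by edgeR.

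Sex was examined because 4 members lie on the X and 1 on the Y chromosome, and because the sexes were not equally divided in zQ175:Msh3-/- mice. In a model of genotype and sex 3 of 77 members were called, against 0.169% of all genes. Kdm6a, an X-linked demethylase of lysine 27 of histone H3 that escapes X inactivation, had 36.6, 41.4 and 48.1 CPM at the lowest, median and highest of 15 females and 27.5, 29.4 and 33.2 CPM in 17 males. Females and males did not overlap, and the log2 fold change was 0.51 ± 0.03 (SE; adjusted p 8.98e-16 by edgeR). Kdm5c, an X-linked demethylase of lysine 4 that also escapes inactivation, had 79.5, 86.2 and 96.4 CPM in females and 61.7, 69.2 and 79.3 CPM in males, with a log2 fold change of 0.31 ± 0.03 (adjusted p 2.18e-08 by edgeR). Its Y-linked counterpart Kdm5d had 344 to 856 counts in every male, or 27.6 to 36.6 CPM, and 0 to 14 counts in females. The other X-linked members, Hdac6 and Hdac8, did not pass.

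**Figure D4:**
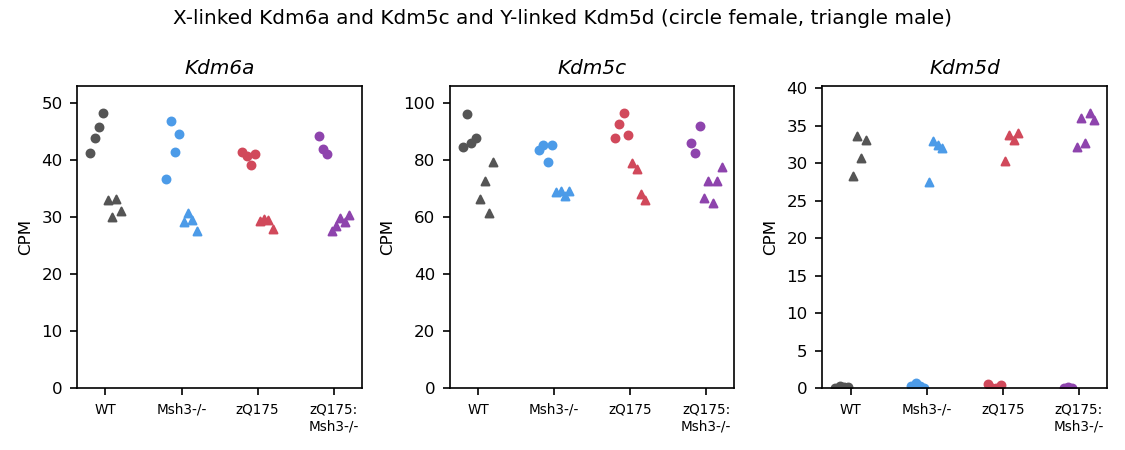
CPM of each of 32 mice (vertical axes, from 0) by genotype for Kdm6a, Kdm5c and Kdm5d, with circles for females and triangles for males. Kdm6a is higher in all females (36.6 to 48.1 CPM) than in all males (27.5 to 33.2 CPM) whatever the genotype, and Kdm5d lies near 0 in females.

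Within each genotype the means of the 3 genes kept this order, and 2 or 3 of them were called when the sexes were compared in 1 genotype alone. Kdm6a had means of 44.7 ± 3.0 CPM (SD, n = 4) in WT females and 31.7 ± 1.6 CPM in WT males, and of 42.3 ± 1.6 CPM (n = 3) in zQ175:Msh3-/- females and 29.0 ± 1.1 CPM (n = 5) in males. With sex in the model, the counts of called members stayed at 5, 6 and 7 in the 3 comparisons with the zQ175 allele. Of all genes, 1926, 1780 and 1982 were called there.

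Partner proteins and related enzymes outside the symbol rule were counted from 4 lists. These counts can be read against 13.0% of all genes higher and 13.5% lower in the first zQ175 comparison and 11.8% and 12.3% in the second. Of 30 other histone methyltransferases and demethylases 7 rose and 4 fell in zQ175 against WT mice at an adjusted p under 0.05, and 4 rose and 2 fell between zQ175:Msh3-/- and Msh3-/- mice. Suv39h1, a methyltransferase of lysine 9 of histone H3, rose in both (log2 fold changes 0.34 ± 0.06 and 0.29 ± 0.06, SE), and Prmt8, a neuronal arginine methyltransferase, fell in both (-0.29 ± 0.04 and -0.25 ± 0.04). Of 27 other acetyltransferases and corepressor subunits 6 rose and 4 fell in the first comparison and 5 rose and 2 fell in the second. Chd3, a chromatin remodeller, rose in both (0.34 ± 0.04 and 0.32 ± 0.04), as did the corepressor subunit Mta3 (0.31 ± 0.06 in each). The genes named from these lists were picked after their values were seen, and they do not stand for a whole complex. Of 18 tested readers and removers of DNA methylation 0 rose and 3 fell in the first comparison, and 1 rose and 2 fell in the second, and the methyl-CpG binding Mbd2 fell in both (-0.28 ± 0.04 and -0.24 ± 0.04). Of 13 tested subunits of the complexes that hold Kmt2 and Setd1 enzymes 4 rose and 2 fell in the first and 2 rose and 2 fell in the second.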

How the data were processed

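RNA was sequenced from polyA-selected libraries of striatum from 32 mice, 8 of each genotype, with groups and sex taken from the labels. The deposited counts are whole numbers of reads per gene that the authors made on build GRCm38.p6, per the submitters' processing notes; the aligner, counter and strand setting are not given in the sources used here. The authors' length-normalized table, named as FPKM, summed to the same round total in every library and was treated as TPM. Symbols and positions come from GENCODE M21, which held 54495 of the 54532 identifiers.

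Counts were filtered with edgeR's expression filter, scaled by TMM and fitted with edgeR 4.0.16 in R 4.3.3 by robust quasi-likelihood in 1 model of the 4 genotypes, with Benjamini-Hochberg adjustment over 16610 genes. CPM values use TMM-scaled library sizes. The female against male comparison had genotype in the model. Alternatives were DESeq2 1.42.0 without independent filtering, limma 3.58.1 on log2(TPM + 0.1) or log2(TPM + 1), other scalings and filters, sex in the model, each sex alone, a replicate block and leaving out each mouse. The test was checked on simulated counts. Totals of 12359347 to 25030335 counts a mouse limit precision for genes with few counts, and a count of 0 allows up to 3 counts. No pair of mice of 1 genotype agreed within counting noise, the lowest chi-square per degree of freedom being 4.26.

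The 34 genes named with statistics were those called in any comparison, the highest in each family by TPM, and 18 enzymes listed by name (such as Hdac4, Sirt1 and Dnmt3a); other members were named after their values were seen. The symbol rule that gives the members, and the lists, were set with earlier results of these data known. Of the members, 43 overlap a gene on the opposite strand, so that without strand information reads of both cannot be told apart.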

Additional observations from a re-analysis of the deposited data

Results flagged for a closer look

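In 7 of 140 sets of 8 mice (34 named genes and the total counts, in each of 4 genotypes), a single mouse lay far from the other 7, with a gap to its neighbour, as a share of the whole range, past the critical value of Dixon's test. Chance alone flags about 1 in 20 sets, or 7 here. Kdm4b in zQ175 mice had its highest value at 95.5 CPM in female 3, against 82.3 to 86.7 CPM in the others (ratio 0.646), and Kdm3a in Msh3-/- mice had 91.5 CPM in male 2, against 68.4 to 78.0 CPM (ratio 0.548). Neither gene lost its call when any mouse was left out. Tet2 in Msh3-/- mice had 66.0 CPM in female 4, against 56.1 to 59.5 CPM (ratio 0.639). The lowest value stood apart for Kat2b in WT mice, at 31.6 CPM in female 1 against 36.3 to 39.1 CPM (ratio 0.649), and for Sirt1 in WT mice, at 14.7 CPM in male 2 against 16.9 to 18.4 CPM (ratio 0.627). It did so for Setdb1 in both zQ175 genotypes, at 40.0 CPM in zQ175 male 3 against 43.8 to 46.7 CPM (ratio 0.584) and at 37.9 CPM in zQ175:Msh3-/- male 1 against 40.9 to 43.4 CPM (ratio 0.554).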

How the results depend on the processing

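Counts of called members in zQ175 against WT, zQ175:Msh3-/- against Msh3-/- and zQ175:Msh3-/- against WT mice were 5, 6 and 7. Of all genes, 1925, 1768 and 1992 were called. Without the fold limit the member counts were 22, 26 and 27, beside 4398, 4002 and 4469 of all genes. The latter 2 comparisons gave 13 and 12 members by limma on log2(TPM + 0.1), beside 2222 and 2466 of all genes. On that scale without a filter they gave 13 and 11, beside 2131 and 2341. The second gave 11 on log2(TPM + 1), beside 1973 of all genes. In males only zQ175:Msh3-/- against WT gave 12, beside 1244 of all genes. Leaving out 1 mouse gave 4 to 7, 5 to 10 and 6 to 9 members. The value of 10 came without Msh3-/- female 4, where 1853 of all genes were called. Counts stayed at 0 for both comparisons of Msh3 loss and for the interaction in each alternative. Same-numbered mice did not deviate together (45 pairs, r from -0.195 to 0.269, 8 over 0.1). With the replicate block the counts were 5, 5 and 7, beside 1931, 1694 and 1901 of all genes. Kmt2d was lost in the second, and Hdac2 there was -0.00266, against -0.00120 without a filter. Kdm3a and Kdm4b in both zQ175 effects, Kdm6b in the first and Hdac1 in the second kept their calls in all 29 alternatives each. Among these, dropping the fold limit could not lose a call. Kdm6b in the second was lost in males only and Tet1 there on log2(TPM + 1) and in females only. The cause was not tested.

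In the 2 zQ175 effects, named genes that changed sign had not passed adjusted p under 0.05 in counts, and the lowest adjusted p of a value with changed sign was 0.270. In zQ175:Msh3-/- against WT, Hdac5 had passed in counts (-0.13, adjusted p 0.00684 by edgeR) and was at 0.02 on log2(TPM + 0.1). By limma on log2(TPM + 0.1), with the same values without a filter, and on log2(TPM + 1), the zQ175 against WT values were 0.0419 and 0.0415 for Hdac2, 0.0188 and 0.0178 for Hdac4, 0.0261 and 0.0259 for Hdac5, 0.0462 and 0.0454 for Kat2a, 0.0387 and 0.0381 for Kat7, and 0.0280 and 0.0267 for Tet3. In the second effect they were 0.0641 and 0.0618 for Dnmt1, 0.0178 and 0.0176 for Kat2a, 0.0102 and 0.0100 for Kat7, 0.0292 and 0.0278 for Kdm6a, 0.0586 and 0.0562 for Setdb1, and 0.0417 and 0.0397 for Tet3. In males only the first effect was 0.0167 for Kat2a, 0.00723 for Kat7 and -0.0207 for Kdm1a, and the second -0.0666 for Hdac2, -0.0423 for Prdm2 and -0.00566 for Sirt1. In females only the first was 0.0589 for Hdac4, -0.0373 for Kmt5a and -0.0167 for Sirt1, and the second 0.0598 for Dnmt1, -0.00114 for Hdac4, -0.0152 for Kat2b, 0.0123 for Kmt5a and 0.0110 for Setdb1. Leaving out 1 mouse, the first ranged from -0.0305 to 0.00326 for Hdac2, -0.0211 to 0.00834 for Kat2a, -0.140 to 0.338 for Kdm5d and -0.000752 to 0.0429 for Sirt1, and the second from -0.0265 to 0.0208 for Hdac2, -0.0280 to 0.0447 for Kdm5c and -0.0196 to 0.0117 for Setdb1.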
